A study of Mus musculus with 96 samples.

Results

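The Hox genes are 39 transcription factor genes of the mouse count tables, 11 in cluster A, 10 in cluster B, 9 in cluster C and 9 in cluster D, out of 34591 gene symbols counted in 96 RNA-seq libraries. They were taken by name alone, as every symbol made of Hox, a cluster letter and a position number. The antisense transcripts Hoxa11as and Hoxb3os were not counted among them. Hox genes sit in order along their chromosomes, and their order in the cluster follows where they are switched on along the body: low numbers (anterior, positions 1 to 3 here) near the head, middle numbers (central, 4 to 8) in the trunk, and high numbers (posterior, 9 to 13) towards the tail, the hindgut and the urogenital tract. Polycomb complexes keep clusters silent, Trithorax-group methyltransferases keep active genes on, PBX and MEIS proteins help HOX proteins bind DNA, and retinoic acid and CDX proteins induce Hox genes in the embryo. Endoderm and the mesenchyme around it each carry a Hox pattern that marks their level along the gut.

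The libraries came from mouse liver tumours, their metastases and organoids, which are epithelial cultures grown in 3 dimensions under stem cell conditions. Dissected tissues were 5 lung metastases, 3 peritoneal metastases and 10 primary tumours called LCS-driven, 3 peritoneal metastases and 2 primary tumours called HBS1_F2-driven, 2 primary tumours called HBS1-driven, 5 metastases and 11 primary tumours called PPTR, 9 primary tumours called PNR, and 6 normal livers. Cultured libraries were 19 of the cancer organoid lines LCS1 to LCS5, 11 of lines HBS1 to HBS6, 4 of line HBS1_F2 and 6 of normal liver organoids. The PPTR metastases were 2 from intestine and 1 each from lung, peritoneum and inside the liver. A tumour called driven carries the name of an organoid line or family. The labels do not state how it was made or what PPTR, PNR, LCS, HBS and F2 stand for. They also state no genotype, strain or age of the animals and name no treatment. The labels do not say which libraries came from separate animals or cultures, so each p-value measures the spread between libraries, which may be technical.

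Depth was 4.4 M to 87.1 M gene counts per library (M for 1000000 counts), with a median of 29.5 M, so 1 count was worth 0.0109 to 0.240 CPM, the count per 1000000 gene counts. Levels below are CPM of the scaled library size. Because CPM takes no account of gene length, levels are compared within a gene only. In bulk tissue, fewer cells that use a gene and less RNA of it per cell cannot be told apart. The 7 hepatocyte markers summed to 58.7 to 129 CPM in normal organoids, against 49566 to 89259 CPM in normal livers, and the 6 biliary markers to 1945 to 3872 CPM in normal organoids, against 52.9 to 168 CPM in normal livers. The library labelled HBS1_F2 organoid 2 stood apart from organoids 1, 3 and 4 of that line: reads of the pseudogene Rpl34-ps1 made up 84.8% of its Rpl34 and Rpl34-ps1 reads, against 8.11% to 19.3% in the other 3, and the same share was 71.7% to 87.1% in LCS organoids and 5.06% to 8.39% in HBS organoids. Tests that include it are also given without it. The Rpl34-ps1 share also split other groups, at 81.3% to 86.6% in PPTR tumours against 5.08% to 8.48% in PNR tumours. It was 7.14% to 8.70% in normal organoids and 7.80% to 80.3% in normal livers. Differences between PPTR and PNR tumours, or between LCS and normal or HBS organoids, thus cannot be told apart from whatever sets this share. HBS1 organoid 1 had counts for 29192 genes with scattered low Hox values, the highest 0.614 CPM for Hoxc9. Lung metastases 1 and 2 matched closely (SD of log2 ratios 0.216), as did PNR tumours 5 and 6 (0.194) and 2 and 3 (0.208).

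Sequences around a start of each of 3 genes on which the results turn are shown, since CG-rich promoters are the usual ground of Polycomb. Each runs from 250 bases before to 50 bases after the start in RefSeq's GRCm38.p6 annotation, 5′ to 3′ on the gene's strand, with each CG in capitals. Hoxa13 lay at chr6:52260831-52261130 (minus strand), Hoxa10 at chr6:52240805-52241104 (minus strand, the start farther upstream of its pair) and Hoxb4 at chr11:96318017-96318316 (plus strand).
Hoxa13: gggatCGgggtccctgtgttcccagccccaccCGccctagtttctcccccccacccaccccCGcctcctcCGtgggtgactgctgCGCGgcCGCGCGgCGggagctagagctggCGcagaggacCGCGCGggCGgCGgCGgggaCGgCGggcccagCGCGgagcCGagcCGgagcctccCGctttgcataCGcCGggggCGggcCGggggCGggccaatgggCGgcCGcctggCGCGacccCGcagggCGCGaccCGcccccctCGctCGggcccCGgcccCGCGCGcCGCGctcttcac
Hoxa10: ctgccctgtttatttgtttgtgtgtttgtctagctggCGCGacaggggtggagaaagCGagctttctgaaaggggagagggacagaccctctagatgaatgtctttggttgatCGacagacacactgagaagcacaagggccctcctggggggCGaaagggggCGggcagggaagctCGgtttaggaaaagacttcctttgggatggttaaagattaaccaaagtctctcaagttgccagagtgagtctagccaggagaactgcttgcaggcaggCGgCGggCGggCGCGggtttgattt
Hoxb4: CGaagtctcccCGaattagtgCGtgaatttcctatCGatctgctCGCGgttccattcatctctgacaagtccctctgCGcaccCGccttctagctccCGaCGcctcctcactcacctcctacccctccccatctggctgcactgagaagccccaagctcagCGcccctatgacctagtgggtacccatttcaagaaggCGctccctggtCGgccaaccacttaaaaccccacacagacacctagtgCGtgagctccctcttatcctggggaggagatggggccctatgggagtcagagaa
The Hoxa13 stretch held 45 CG at a GC content of 81%, a number that 1.93% of the 32851 promoters of this length reached. Hoxa10 held 12 CG at 54.3% GC (39.6% of promoters had as many) and Hoxb4 held 14 at 58% (36.3%). The other Hoxa10 start is not shown, so these numbers compare the stretches shown and not the genes. The motif searched was CG, which reads the same on both strands, and 94.6% of all promoters held at least 1, with a median of 7. The 24 promoters that matched 22 of the 39 Hox genes held 4 to 45, with a median of 14.5. Counts were made by the authors on another build (mm9), so these positions are for the sequences only.

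Most Hox genes were silent or nearly so in most libraries. Of the 39, 17 never reached 1 CPM in any library (2 in cluster A, 2 in B, 5 in C and 8 in D), 22 reached 1 CPM somewhere and 11 reached 5 CPM. The gene seen most widely was Hoxb4, known for expanding blood stem cells, at 1 CPM or more in 45 libraries of 12 groups. Hoxb2, a hindbrain patterning gene, reached it in 23 libraries, and Hoxa5, which patterns lung and its mesenchyme, and Hoxb3 each in 22. The posterior genes were rarer: Hoxa13, which shapes the digits, hindgut and genital tract, reached 1 CPM in 12 libraries and 5 CPM in 9, and Hoxb13, a gene of the tail end and the prostate, reached 1 CPM in 10 and 5 CPM in 7. The highest value of 23 of the 39 genes fell in a library of the HBS1_F2 line or of tumours and metastases driven by it. Most of these were in HBS1_F2 organoid 4 alone, and some were low, as for Hoxd9 at 0.223 and Hoxc10 at 0.559 CPM. The same share over all genes was not counted, so the number is a description. Clusters C and D contributed little. Only Hoxd8 of cluster D reached 1 CPM, in 5 libraries, and Hoxc4, Hoxc5, Hoxc6 and Hoxc8 were the cluster C genes that did.

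**Figure D1:**
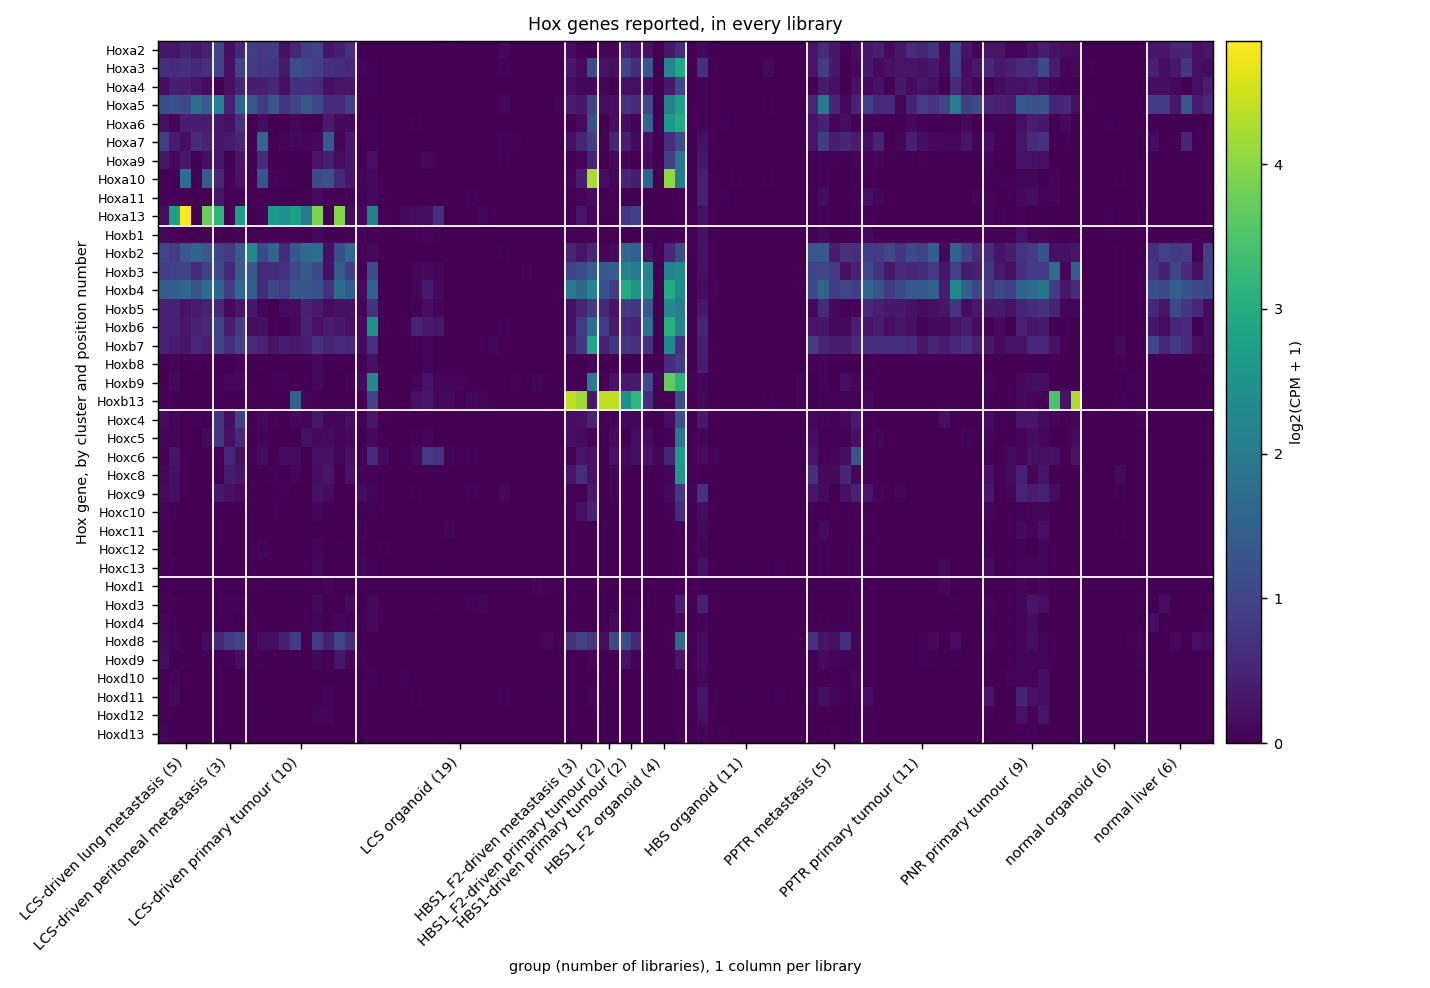
Level of 38 of the 39 Hox genes (rows, by cluster and position number) in each of the 96 libraries (columns, by group), as log2(CPM + 1). Clusters C and D are dark almost throughout, Hoxb4 runs across most tissue groups, and organoid columns other than HBS1_F2 and LCS2 organoid 1 are almost empty.

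The number of Hox genes at 1 CPM or more was compared by group. It averaged 9.75 ± 7.81 in HBS1_F2 organoids (SD, n = 4), with 9, 0, 11 and 19 genes in organoids 1 to 4, and 13 ± 5.29 without organoid 2 (n = 3). HBS1_F2-driven metastases had 2, 3 and 9 genes, HBS1_F2-driven tumours 3 each, and HBS1-driven tumours 6 and 4. LCS-driven lung metastases averaged 3.8 ± 1.1 (n = 5), peritoneal metastases had 4, 0 and 6 in the order 1 to 3, and LCS-driven tumours averaged 3.9 ± 1.85 (n = 10, 1 to 6 genes). These counts overlapped those of PPTR tumours (1.55 ± 0.688, n = 11, 1 to 3 genes), PNR tumours (1.44 ± 1.33, n = 9, 0 to 4) and normal livers (1.5 ± 1.05, n = 6, 0 to 3). All 6 normal organoids and all 11 HBS organoids had 0, and of 19 LCS organoids 18 had 0 and LCS2 organoid 1 had 5. Posterior genes at 1 CPM or more were 0 in every PPTR tumour, PPTR metastasis and normal liver.

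**Figure D2:**
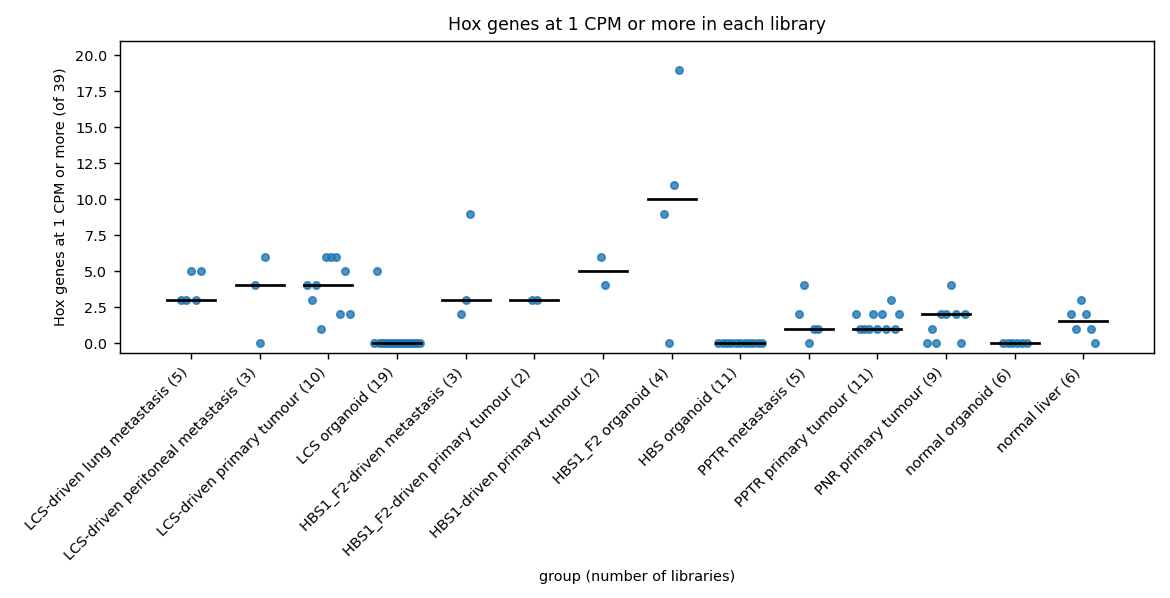
Number of Hox genes at 1 CPM or more (vertical axis) in each library (points) of each group, with the group's median as a line. HBS1_F2 organoids spread from 0 to 19, LCS-driven tumours from 1 to 6, and normal livers from 0 to 3, with normal and HBS organoids at 0.

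Normal liver kept a small set of anterior and central genes. Hoxb4 had 1.28, 1.16, 1.80, 1.40, 1.19 and 0.966 CPM in livers 1 to 6. Hoxa5 ranged over 0.235, 0.633 and 1.54 CPM (lowest, median, highest), Hoxb2 over 0, 0.810 and 0.928, Hoxb3 over 0.149, 0.627 and 1.02, and Hoxb7 over 0.114, 0.511 and 1.04. Hoxa10, Hoxa13, Hoxb9, Hoxb13, Hoxc6 and Hoxc8 had no count in any of the 6 livers. Over a group at 0, a floor of 3 counts in the whole group was used, so that a fold against it is a lower bound, and intervals and floors cover counting error only.

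In PPTR tumours the liver's set was seen again, and no difference from liver passed the test. Hoxb4 ranged over 0.286, 1.52 and 3.67 CPM in PPTR tumours, against 0.966, 1.23 and 1.80 in normal livers. Hoxa5 ranged over 0.0666, 0.850 and 3.08 CPM in PPTR tumours, against 0.235, 0.633 and 1.54 in normal livers. The ranges overlapped for both genes. edgeR's quasi-likelihood test with Benjamini-Hochberg adjustment over all genes called 0 of 5 Hox genes that passed the count filter, beside 31.1% of all genes tested, with 0 at an unadjusted p under 0.05 and 0 called by DESeq2. Without the filter 1 was called, beside 16.2% of all genes, and that call, of Hoxd4, rests on 2 counts in normal livers and none in PPTR tumours.

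In PNR tumours, Hoxb4 ranged over 0.236, 0.903 and 2.70 CPM and Hoxa5 over 0.154, 0.423 and 1.49 CPM. Of 6 Hox genes tested against normal liver, 0 were called by edgeR, beside 47.7% of all genes, with 0 at an unadjusted p under 0.05 and 0 called by DESeq2. The posterior gene Hoxb13 split the PNR tumours. It had 10.1 CPM in tumour 7 and 18.4 in tumour 9, 0.207 in tumour 8, and 0 to 0.0892 in tumours 1 to 6, while normal livers had no count. Pooled over the 9 tumours this was at least 58.1-fold higher than in normal liver, and it rests on 2 libraries. The same tumours 7 and 9 had the most Hoxb3, a neighbour of Hoxb4, at 2.34 and 1.74 CPM, while Hoxb4 there was 0.838 and 0.537 CPM. Spp1, the osteopontin gene, which is on the biliary marker list, had 12806 and 15799 CPM in tumours 7 and 9, 5463 CPM in tumour 8 and 671 to 1171 CPM in the other 6. It made up nearly all of the summed biliary markers, at 12970 and 15975 CPM in tumours 7 and 9. The biliary keratin gene Krt7 had 0.838 and 1.13 CPM there and 0 to 3.97 CPM in the other 7, so the list did not move as a whole. The profiles of tumours 7 and 9 were close (SD of log2 ratios 0.338). A link of Hoxb13 with Spp1 was not tested.

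PPTR and PNR tumours differed in 1 of 5 Hox genes tested, beside 50.7% of all genes. Hoxb7 was higher at 0.481 ± 0.136 CPM in PPTR tumours (SD, n = 11), against 0.207 ± 0.173 CPM in PNR tumours (n = 9), a log2 difference of 1.15 ± 0.45 (SE; edgeR adjusted p = 0.0379). Hoxb7 passed the filter mainly through the PPTR tumours, which favoured this direction. DESeq2 called 2, and without the PPTR tumours whose files carry another library code none was called (Hoxb7 adjusted p = 0.0581). Without the count filter 17 Hox genes were lower in PPTR tumours and none higher, beside 37.7% of all genes. Among the 17 was Hoxb13, with 2 counts in all PPTR tumours against 903 in PNR tumours, a pooled ratio of 0.0024 (95% exact interval 0.0003 to 0.0085). Hoxc8 had 1 count in PPTR tumours against 34 in PNR tumours (ratio 0.0313, 0.0008 to 0.186).

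LCS-driven primary tumours carried a posterior gene that normal liver and PPTR tumours lacked, in part of the tumours. Hoxa13 had 0, 0.0461, 5.04, 4.66, 5.64, 2.85, 13.9, 0, 14.8 and 0.128 CPM in tumours 1 to 10, and no count in any normal liver. It stood at 1 CPM or more in 6 tumours and at or near 0 in the other 4. Against normal liver, 2015 counts to none made it at least 101-fold higher (edgeR adjusted p = 0.0119), and against PPTR tumours, which had 1 count, the pooled ratio was 1474 (95% exact interval 264 to 58238). Hoxa10, a gene of uterus and blood progenitors further inward in the cluster, did not follow it: it had 1.43, 1.19 and 1.31 CPM in tumours 2, 7 and 8 and at most 0.470 CPM in the rest, so that 2 of its 3 high tumours had next to no Hoxa13. Pooled, Hoxa10 was at least 10.7-fold higher than in normal liver and at least 52.2-fold higher than in PPTR tumours, both of which had no count. Hoxb13 reached 1 CPM in tumour 5 alone, at 1.80 CPM.

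**Figure D3:**
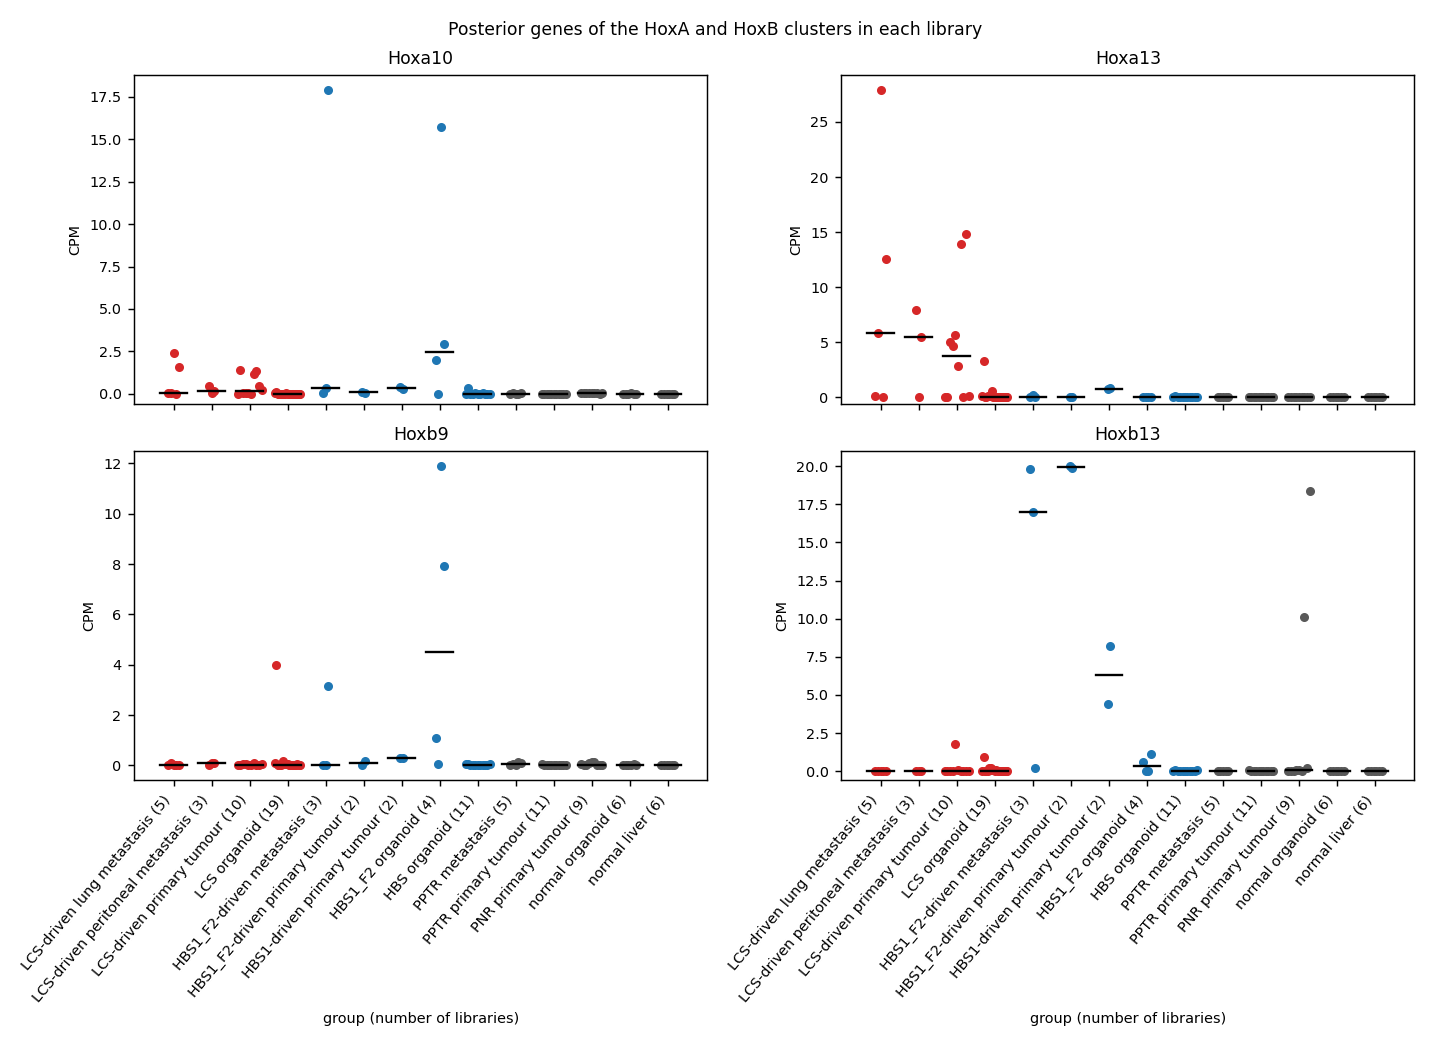
Level in CPM of Hoxa10, Hoxa13, Hoxb9 and Hoxb13 in each library (points) by group, with group medians as lines. Hoxa13 is spread from 0 to 14.8 CPM in LCS-driven tumours and up to 27.9 in lung metastases, Hoxb13 is high in HBS1_F2-driven and HBS1-driven tumours and in 2 PNR tumours, and normal livers sit at 0.

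Levels of the anterior genes moved less. In all, 4 of 11 Hox genes tested were called higher in LCS-driven tumours than in normal liver and none lower, beside 63.4% of all genes, and the median Hox log2 change was 1.16 against 0.13 over all genes. Besides Hoxa13 these were Hoxa3, needed for thymus and parathyroid, Hoxa4 and Hoxd8. Hoxa13 had no count in livers, and Hoxd8 and Hoxa4 were at most 0.149 and 0.284 CPM there. The 4 genes passed the count filter mainly through the tumours, which favoured the higher direction. The count and the Hox median are thus descriptions. Hoxa3 averaged 0.724 ± 0.280 CPM in LCS-driven tumours (SD, n = 10), against 0.277 ± 0.225 CPM in normal livers (n = 6), a log2 change of 1.28 ± 0.43 (SE; edgeR adjusted p = 0.0158). Hoxd8 averaged 0.415 ± 0.364 CPM in LCS-driven tumours, against 0.0568 ± 0.0661 CPM in normal livers, a log2 change of 2.52 ± 0.97 (edgeR adjusted p = 0.0318). Hoxa4 passed at the edge (1.18 ± 0.50, adjusted p = 0.0491). Hoxb4 had 0.484, 1.39 and 2.26 CPM in LCS-driven tumours (lowest, median, highest), against 0.966, 1.23 and 1.80 in normal livers, and was not called (−0.17 ± 0.30, adjusted p = 0.636). Leaving out normal liver 1 or normal liver 4 ended the calls of Hoxa4 and Hoxd8 and left 2 of the 4. LCS-driven tumours had 0.146% to 6.21% of counts in ribosomal repeats and normal livers 10.7% to 25.9%; with that share as a covariate none of the 4 was called, and Hoxa13 had an adjusted p of 0.114. Within the 1 block of sample identifiers (by the leading digits in the titles) that holds both groups, 4 of 8 were called. Without the count filter 5 were called, beside 34.5% of all genes, with Hoxb5 the 1 lower gene (−1.72 ± 0.59, adjusted p = 0.030).

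Against PPTR tumours 1 of 7 tested Hox genes was called, beside 56.6% of all genes: Hoxa3, at 0.724 ± 0.280 CPM in LCS-driven tumours (SD, n = 10), against 0.240 ± 0.221 CPM in PPTR tumours (n = 11; log2 difference 1.496 ± 0.341, edgeR adjusted p = 0.000817). Hoxa3 passed the filter mainly through the LCS-driven tumours, which favoured this direction. Within the same block of identifiers 2 were called. Without the filter 10 were called, all higher in LCS-driven tumours, beside 34% of all genes. They were Hoxa3, Hoxa9, Hoxa10, Hoxa13, Hoxb13, Hoxc4, Hoxc5, Hoxc6, Hoxc8 and Hoxd8. Most of them are central or posterior, but so are most of the 39 Hox genes (15 central and 16 posterior). This is no result about position. Hoxb13 rests mostly on tumour 5, at 1.80 CPM against at most 0.0518 CPM in the other LCS-driven tumours. Hoxd8 differed by 3.67 ± 0.75 (adjusted p = 0.000427) and Hoxc6 by 3.56 ± 0.78 (adjusted p = 0.000843), with 35 counts of Hoxc6 in LCS-driven tumours against 1 in PPTR tumours.

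Marker lists of other cell types were followed in the same libraries. The 8 intestinal markers summed to 277 to 2602 CPM in LCS-driven tumours, to 51.8 to 809 in PPTR tumours and to 48.03 to 132 in normal livers, where Cdx1 was at 0, and 7 of 8 were called higher and 1 lower than in normal liver. Cdx2, an intestinal homeobox gene that induces posterior Hox genes, had 43.97, 3.71, 41.0, 12.9, 34.5, 13.9, 51.2, 5.52, 14.6 and 7.33 CPM in LCS-driven tumours 1 to 10. Tumours 2, 8 and 10, with Hoxa13 at 0.128 CPM or less, had intestinal sums of 383, 356 and 277 CPM, and tumour 1, with no Hoxa13 count, had 1854. The 12 fibroblast and stellate cell markers summed to 2763 to 85682 CPM in LCS-driven tumours, to 279 to 1683 in PPTR tumours and to 250 to 647 in normal livers, with 11 of 12 called higher than in normal liver. Within the tumours this sum was lowest in tumour 9, which had the most Hoxa13, and highest in tumour 10, which had 0.128 CPM of Hoxa13. Between these ends the 2 did not run in 1 order: tumour 4, with 4.66 CPM of Hoxa13, had 19135 CPM. Tumour 1, with no Hoxa13 count, had 5748 CPM. The 6 mesothelium markers summed to 828, 245, 1533, 890, 1792, 865, 1643, 459, 1714 and 262 CPM in LCS-driven tumours 1 to 10, and to 1.31 to 12.4 CPM in normal livers, with 4 of 6 called higher. The 4 lowest sums were those of tumours 1, 2, 8 and 10, where Hoxa13 was at 0.128 CPM or less. The sums were mostly Krt19 and Msln, which LCS organoids also had, at 223 CPM or more of Krt19 and 141 CPM or more of Msln. Wt1, the defining gene of the list, had 0.754 to 18.1 CPM in LCS-driven tumours, 0 to 0.448 CPM in LCS organoids and 0.140 to 1.02 CPM in normal livers. The part of these cell contents in the Hox values was not tested.

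Set against the cultures whose family name they carry, LCS-driven tumours had the anterior and central genes and the LCS organoids almost none. With each of the 5 organoid lines summed to 1 replicate, 10 of 11 Hox genes tested were called higher in the tumours, beside 60.5% of all genes. With organoids outside the LCS2 line at or near 0, genes passed the count filter through the tumours, which fixed the direction, so the count is a description. Hoxb2 had 0.146, 1.74 and 3.72 CPM in tumours (lowest, median, highest), against 0, 0 and 0.0918 CPM in organoids. Hoxa5 had 0.487, 0.916 and 1.58 CPM in tumours, against 0, 0 and 0.0778 in organoids. The groups did not overlap for either gene, nor for Hoxa3 (0.270 CPM or more in tumours and at most 0.0556 in organoids) and Hoxa2 (0.169 or more and at most 0.0778). The log2 differences were 7.03 ± 0.83 for Hoxb2 (edgeR adjusted p = 4.91e-06), 6.96 ± 0.74 for Hoxa5 (1.79e-06), 6.26 ± 0.60 for Hoxa3 (7.17e-07) and 6.24 ± 0.79 for Hoxa2 (9.17e-06). Hoxa4 differed by 5.97, Hoxd8 by 5.77, Hoxb3 by 3.60, Hoxb4 by 3.40 and Hoxb7 by 3.09. Without LCS2 organoid 1 the differences of Hoxb3 and Hoxb4 grew to 5.87 and 5.34 on the log2 scale.

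Hoxa13 missed the call there, with 2015 counts in tumours against 147 in organoids and a log2 difference of 4.31 ± 1.84 (edgeR adjusted p = 0.0535; DESeq2 called 11 genes). The LCS2 line held nearly all the organoid counts: Hoxa13 had 3.27 CPM in LCS2 organoid 1 and 0.124, 0.139 and 0.594 CPM in the other LCS2 organoids, and at most 0.0886 CPM in lines LCS1, LCS3, LCS4 and LCS5. Without the filter 16 were higher and 1 lower, beside 37.9% of all genes. The lower gene was Hoxb9, a posterior gene by its position, with 148 counts in organoids, mostly in LCS2 organoid 1, and 10 in tumours. The fibroblast list summed to 2763 to 85682 CPM in tumours and to 1.09 to 80.9 CPM in organoids, in which 5 of 12 markers reached 1 CPM, and 11 of 12 were called higher in tumours. Its part in the tumours' Hox values was not tested.

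Metastases that carry the LCS name kept the same picture by site, with wide spread. Hoxa13 had 0.124, 5.81, 27.9, 0 and 12.6 CPM in lung metastases 1 to 5 and 7.91, 0 and 5.52 CPM in peritoneal metastases 1 to 3, against a median of 3.75 CPM in the primary tumours. The lung metastases held both the highest value of the series and a library without a count. Hoxa13 averaged 9.28 ± 11.6 CPM in lung metastases (SD, n = 5), against 4.71 ± 5.56 CPM in primary tumours (n = 10), a log2 difference of 0.98 ± 1.42 (edgeR adjusted p = 0.672), which was −0.04 without lung metastasis 3. For peritoneal metastases the difference from primary tumours was −0.06 ± 1.83 (adjusted p = 0.995).

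Lung metastasis 3 also had more of Evx1 and Hoxa10, which lie near Hoxa13. Hoxa11, which lies between Hoxa10 and Hoxa13, had no count there. Hoxa9 had 0.264 CPM there, against 0.248 CPM in lung metastasis 1. Evx1, the homeobox gene next to Hoxa13, had 0.0177, 0.229, 15.4, 0 and 3.54 CPM in lung metastases 1 to 5, 0, 0 and 0.802 CPM in peritoneal metastases 1 to 3, and at most 0.596 CPM in the primary tumours. Hoxa10 had 0.0177, 0.0286, 2.38, 0 and 1.59 CPM in the same lung metastases. Both genes were thus highest in the 2 lung metastases with the most Hoxa13. Cdx2 had 30.8, 37.2, 49.2, 0.740 and 34.6 CPM there, and the intestinal markers summed to 2466, 2480, 3995, 196 and 1961 CPM. Lung metastasis 4, with no Hoxa13, was lowest in both, and lung metastasis 1, with little Hoxa13, was not. The peritoneal metastases had 11.8, 1.06 and 26.1 CPM of Cdx2, with metastasis 2 again the library without Hoxa13.

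**Figure D4:**
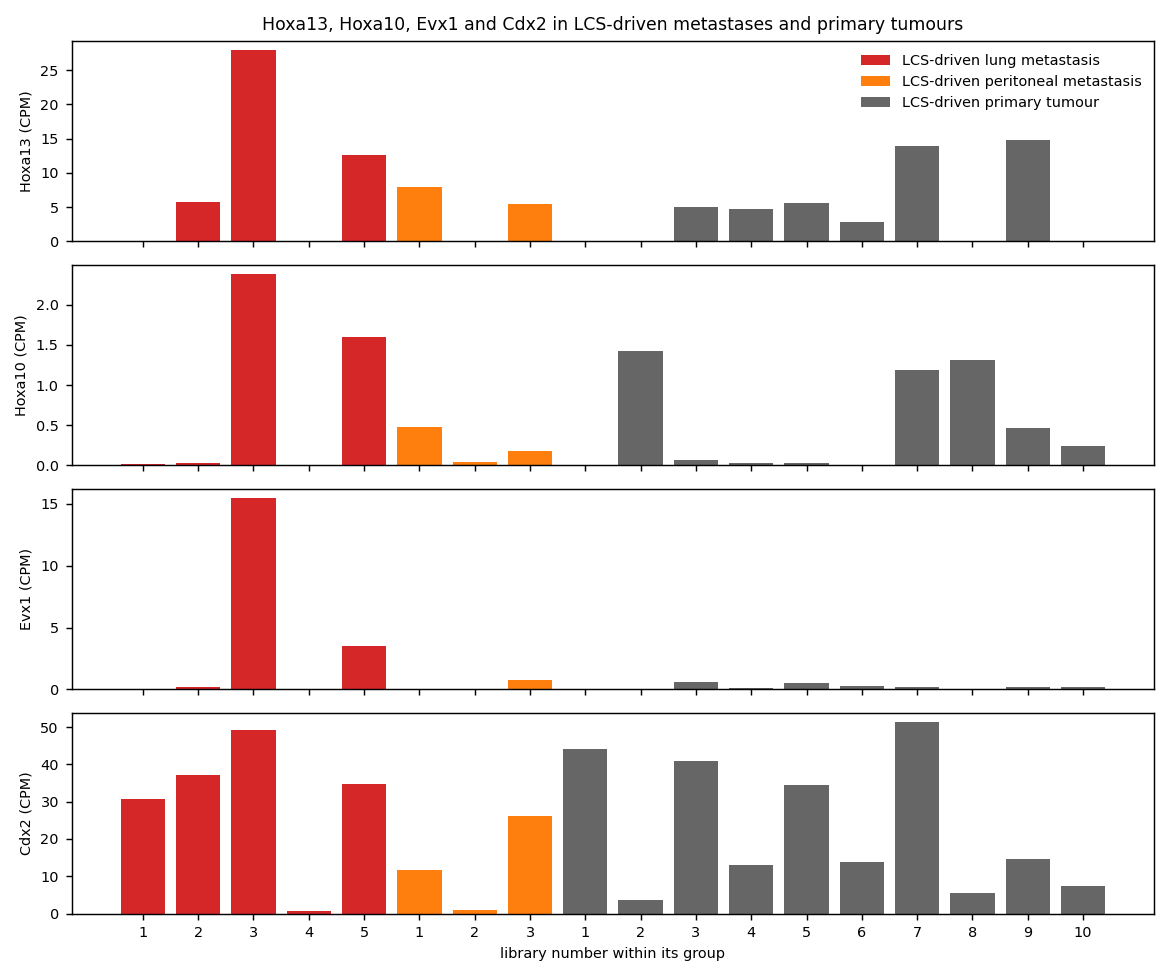
Levels in CPM of Hoxa13, Hoxa10, Evx1 and Cdx2 (bars from 0) in each of 5 lung metastases, 3 peritoneal metastases and 10 primary tumours called LCS-driven. Hoxa13 is highest in lung metastasis 3 (27.9 CPM) and has no count in lung metastasis 4, peritoneal metastasis 2 and primary tumours 1 and 8, and Evx1 passes 1 CPM in 2 lung metastases.

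By test, 1 of 17 Hox genes differed between lung metastases and primary tumours, beside 14.8% of all genes. Hoxd8 averaged 0.0575 ± 0.0464 CPM in lung metastases (SD, n = 5), against 0.415 ± 0.364 CPM in primary tumours (n = 10), and fell by 2.81 ± 0.86 on the log2 scale (edgeR adjusted p = 0.036). Hoxd8 was at most 0.116 CPM in lung metastases, so it passed the filter through the other LCS-driven groups, which favoured this direction. The call was lost without lung metastasis 1, 2, 3 or 4 (adjusted p 0.0537 to 0.0873) and within 1 block of identifiers (−3.76, adjusted p = 0.283). Without the filter none was called, beside 6.56% of all genes and with 7 at an unadjusted p under 0.05. Hoxa5, a lung gene, had 1.26, 1.32, 1.19, 2.43 and 1.66 CPM in lung metastases, against a median of 0.916 CPM in primary tumours, and was not called (0.64 ± 0.41, adjusted p = 0.303). The 8 lung epithelium markers summed to 1069 to 2205 CPM in lung metastases and to 5.24 to 366 CPM in primary tumours, with 6 of 8 called higher, and their part in the Hox values was not tested.

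None of 17 Hox genes was called between peritoneal metastases and primary tumours by edgeR, beside 0.883% of all genes, with 3 at an unadjusted p under 0.05 and 0 called by DESeq2. Hoxb7 had a log2 difference of 0.997 ± 0.328 there (adjusted p = 0.218) and Hoxb6 1.93 ± 0.63 (adjusted p = 0.211). None of 17 was called between lung and peritoneal metastases by edgeR, beside 0.862% of all genes, with 3 at an unadjusted p under 0.05 and 1 called by DESeq2. Hoxd8 had 0 to 0.116 CPM in lung metastases and 0.480 to 1.03 CPM in peritoneal metastases, ranges that did not overlap (log2 difference −3.69 ± 1.01, edgeR adjusted p = 0.107).

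The HBS1 family had another posterior gene. Hoxb13 had 19.8, 16.97 and 0.243 CPM in HBS1_F2-driven metastases 1 to 3, 19.999 and 19.893 CPM in HBS1_F2-driven tumours, and 4.41 and 8.23 CPM in HBS1-driven tumours. Metastasis 3 was the exception, and it was the metastasis with Hoxa10. Hoxa10 had 0.0654, 0.312 and 17.9 CPM in metastases 1 to 3, 0.0441 and 0.121 CPM in HBS1_F2-driven tumours, and 0.310 and 0.420 CPM in HBS1-driven tumours. Metastasis 3 also had Hoxb7 at 6.20, Hoxb9 at 3.16, Hoxb6 at 2.43 and Hoxa6 at 1.28 CPM. Hoxb9 had no count in metastases 1 and 2. Metastases 1 and 2 were close to each other (SD of log2 ratios 0.39) and not to metastasis 3 (1.06 and 1.08). Hepatocyte markers summed to 2747 CPM in metastasis 3, against 9207 and 10067 CPM in metastases 1 and 2, and fibroblast markers to 400, against 537 and 1211 CPM. The fibroblast list did not move as a whole. Its collagen genes, Dcn, Lum, Postn and Thy1 were lowest in metastasis 3. Pdgfra, Pdgfrb, Des, Acta2 and Fbln1 were highest there, with Pdgfrb at 105 CPM against 24.7 and 25.2 CPM in metastases 1 and 2.

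Hoxb4 was present throughout these tissues, with 2.81, 2.08 and 3.71 CPM in the metastases, 1.39 and 0.771 CPM in HBS1_F2-driven tumours and 6.91 and 4.92 CPM in HBS1-driven tumours. Hoxb3 had 0.981 to 1.70 CPM in the metastases, 1.57 and 1.67 CPM in HBS1_F2-driven tumours and 3.50 and 2.85 CPM in HBS1-driven tumours. Hoxb2 had 0.0602 to 0.0881 CPM in HBS1_F2-driven tumours and 1.83 to 2.13 CPM in HBS1-driven tumours. For Hoxb2, Hoxb3 and Hoxb4, both HBS1-driven tumours were thus above both HBS1_F2-driven ones. With 2 tumours a group these were not tested against each other. The fibroblast markers summed to 303 and 212 CPM in HBS1_F2-driven tumours and to 4755 and 1285 CPM in HBS1-driven tumours, and their part in these levels was not tested. The antisense transcript Hoxb3os had 0.783 and 0.330 CPM in HBS1_F2-driven tumours and 2.62 and 3.00 CPM in HBS1-driven tumours, and since the sources used here do not say whether counting used strand, reads where it overlaps Hoxb3 may not be told apart.

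Between the 3 HBS1_F2-driven metastases and the 4 HBS1- and HBS1_F2-driven tumours as 1 group, none of 12 Hox genes was called by edgeR, beside 0% of all genes, with 1 at an unadjusted p under 0.05 and 0 called by DESeq2. Hoxa10 had a log2 difference of 4.90 ± 1.72 (adjusted p = 0.592), which was −0.28 without metastasis 3. Hoxb13 had a log2 difference of −0.03 ± 1.04 (adjusted p = 0.996), which was 0.54 without metastasis 3. The test of whether peritoneal metastases differed from primary tumours by another amount in the LCS than in the HBS1_F2 family called none of 19 Hox genes by edgeR, beside 0% of all genes, with 1 at an unadjusted p under 0.05 and 0 called by DESeq2.

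Against PNR tumours, none of 11 Hox genes was called in the 4 tumours by edgeR, beside 9.82% of all genes, with 5 at an unadjusted p under 0.05 and 0 called by DESeq2. Hoxb13 averaged 13.1 ± 8.02 CPM in HBS1- and HBS1_F2-driven tumours (SD, n = 4), against 3.22 ± 6.60 CPM in PNR tumours (n = 9), and the 2 high PNR tumours reached into the range of the driven ones (log2 difference 2.03 ± 1.58, edgeR adjusted p = 0.413). Spp1 was high in all 4 driven tumours, at 14532 and 13327 CPM in HBS1_F2-driven tumours and 21747 and 23709 CPM in HBS1-driven tumours, while Krt7 was at most 2.71 CPM and Epcam, an epithelial adhesion gene, at most 1.33 CPM. Hoxb3 had a log2 difference of 1.53 ± 0.67 (adjusted p = 0.148) and Hoxb4 of 1.46 ± 0.60 (adjusted p = 0.126). Without the filter 2 were called higher, beside 2.37% of all genes: Hoxd8 at 4.04 ± 0.78 (adjusted p = 0.0161) and Hoxa13 at 4.35 ± 1.07 (adjusted p = 0.0447). Hoxa13 had no count in HBS1_F2-driven tumours and 0.724 and 0.867 CPM in HBS1-driven tumours.

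**Figure D5:**
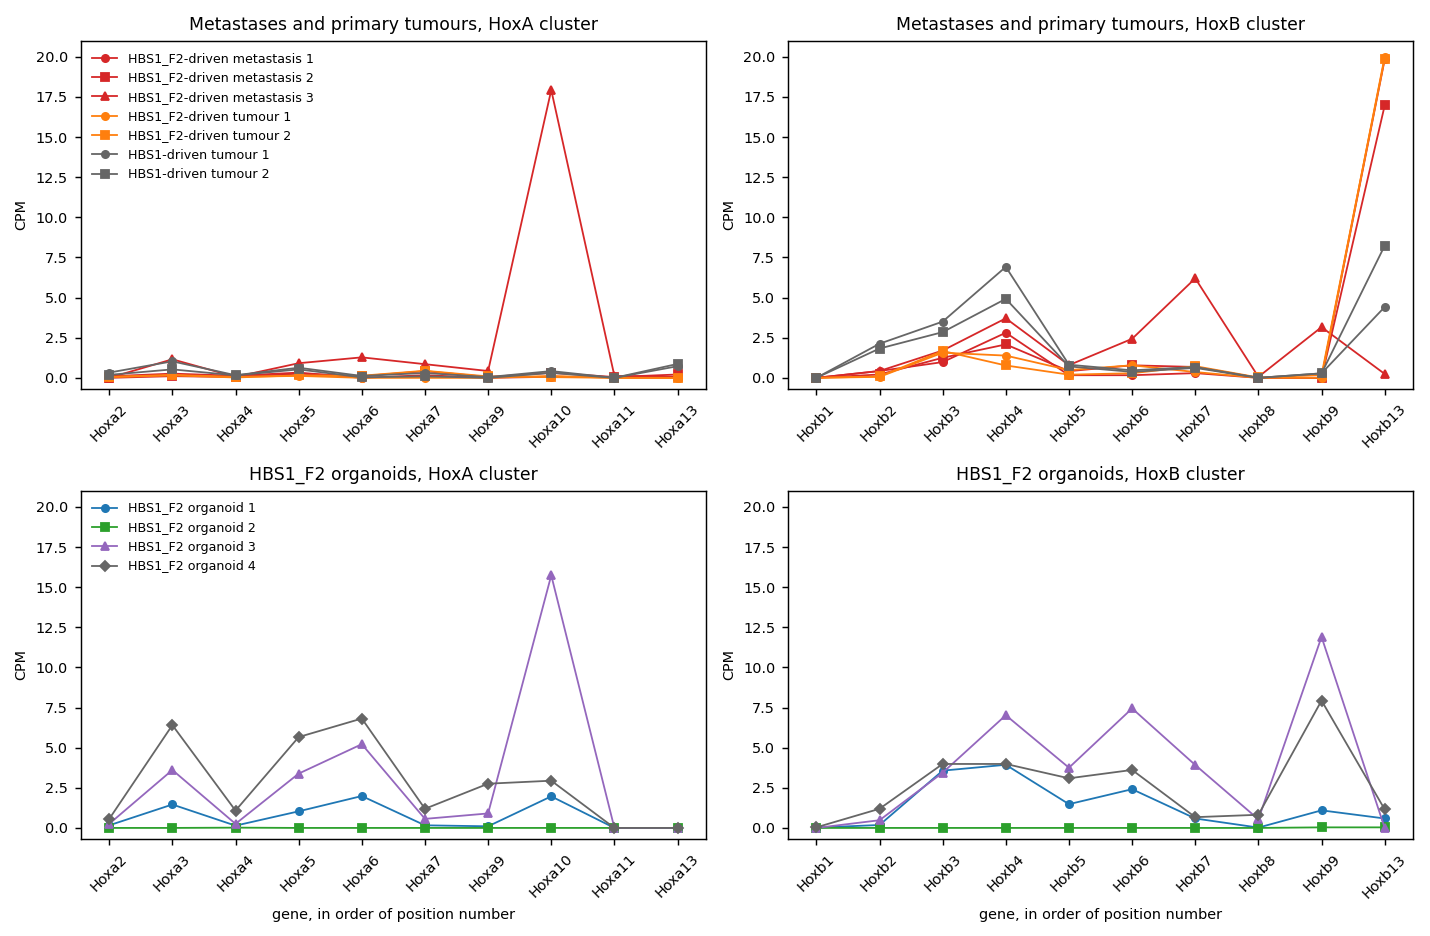
Levels in CPM of HoxA and HoxB genes in order of position number, in HBS1_F2-driven metastases, HBS1_F2-driven tumours and HBS1-driven tumours (top) and in HBS1_F2 organoids 1 to 4 (bottom), 1 line per library. Heights can be compared between libraries at 1 gene and not between genes; Hoxb13 stands out in the tumours and in metastases 1 and 2, Hoxa10 in metastasis 3 and organoid 3, and organoid 2 lies at the bottom.

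The HBS1_F2 organoids were the cultures with the broadest Hox expression, and they were unlike each other. Hoxb9 had 1.09, 0.0353, 11.9 and 7.93 CPM in organoids 1 to 4. Hoxa10 had 1.97, 0, 15.7 and 2.94 CPM and Hoxb4 3.93, 0, 7.02 and 3.98 CPM. Organoid 2, whose library stands apart, had next to none of the 3 genes. Hoxa6 had 1.99, 0, 5.22 and 6.82 CPM, Hoxb6 2.41, 0, 7.45 and 3.61 CPM, and Hoxa5 1.03, 0, 3.38 and 5.66 CPM. Organoid 4 was the 1 organoid with cluster C and D genes at 1 CPM or more: Hoxc6 at 5.44 CPM, Hoxc8, which patterns thoracic vertebrae, at 4.77, Hoxc5 at 2.76, Hoxd8 at 2.09 and Hoxc4 at 1.27, while Hoxc6 was at most 0.423 and Hoxc8 at most 0.056 CPM in the other 3. Hoxb13, at 4.41 CPM or more in the driven tumours, had 0.588, 0.0353, 0 and 1.15 CPM in the organoids, and Hoxa13 had no count.

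Against HBS1 organoids, 1 of 5 Hox genes tested was called higher, beside 13.7% of all genes. DESeq2 called none, and leaving out any 1 library other than HBS1_F2 organoid 2 also left none called. Without the filter 5 were called, among them Hoxa5, Hoxa6, Hoxb4 and Hoxb9, beside 5.57% of all genes. Without HBS1_F2 organoid 2, all 11 Hox genes tested were called higher, beside 38.2% of all genes. HBS1 organoids were at or near 0 for these genes, which passed the filter through the HBS1_F2 organoids alone, so their direction was fixed and the count is a description. The log2 differences were then 9.06 ± 1.21 for Hoxb9 (edgeR adjusted p = 0.00199), 8.002 ± 1.044 for Hoxa5 (0.0019), 7.73 ± 0.86 for Hoxa6 (0.00126) and 6.91 ± 0.92 for Hoxb4 (0.00201). Hoxb3 differed by 6.44, Hoxa10 by 6.07, Hoxb5 by 5.47, Hoxb6 by 5.43, Hoxa3 by 4.61 and Hoxb7 by 4.37.

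Organoids 1, 3 and 4 of HBS1_F2 also had fibroblast and stellate cell markers, 12 of which reached 1 CPM in the line. They summed to 487, 5.68, 607 and 3996 CPM in HBS1_F2 organoids 1 to 4, against 11.1, 1.34, 1.93 and 6.69 CPM in HBS1 organoids 1 to 4. Organoid 2 was again the exception. Hepatocyte markers summed to 1316, 57.3, 865 and 361 CPM in HBS1_F2 organoids, against 56.9 to 78.3 CPM in HBS1 organoids. The 6 biliary markers summed to 12690, 5304, 10057 and 16266 CPM in HBS1_F2 organoids 1 to 4. In HBS1 organoids they summed to 4418 to 15053 CPM, so the list did not move as a whole. Without organoid 2, 3 of 6 were called lower and none higher, beside 38.2% of all genes. Among the lower genes, Epcam averaged 3.93 ± 4.33 CPM in HBS1_F2 organoids (SD, n = 4), against 465 ± 101 CPM in HBS1 organoids (n = 4; −6.94 ± 1.27, edgeR adjusted p = 0.0160). Krt7 averaged 7.79 ± 7.80 CPM against 415 ± 173 CPM (−5.78 ± 1.04, adjusted p = 0.0152). Without organoid 2 the differences were −7.20 for Epcam and −6.12 for Krt7. Both genes, which mark epithelium, were thus low in all 4 HBS1_F2 cultures. The part of these markers in the Hox values was not tested. Cdx2 had 0.101, 8.63, 0 and 0.0372 CPM in HBS1_F2 organoids, against 2.81 to 7.84 CPM in the HBS organoids, with its highest value in organoid 2.

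A microRNA gene of cluster B had counts in the same libraries. Mir196a-1, between the posterior genes of the cluster, had 0.304, 0, 0.874 and 0.484 CPM in HBS1_F2 organoids 1 to 4, 0.608 CPM in HBS1_F2-driven metastasis 3, and 0.420 and 0.371 CPM in HBS1-driven tumours. Its product miR-196a is known to cut Hoxb8 messenger RNA. Hoxb8 was highest at 0.819 and 0.536 CPM in HBS1_F2 organoids 4 and 3, which also had Mir196a-1, and had no count in 73 of the 96 libraries. The mature sequence is shown with its seed (bases 2 to 8) in capitals, from RefSeq GRCm38.p6 at chr11:96265187-96265208 (plus strand). Counts here come from total RNA and are reads of the precursor region, not a measure of the mature microRNA.
mmu-miR-196a-5p: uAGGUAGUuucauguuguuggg

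Normal liver organoids lacked the liver's Hox set. Hoxb4 had 0 to 0.029 CPM in normal organoids (1 count in 6 libraries), against 0.966 to 1.80 CPM in normal livers (79 counts), a pooled ratio of 0.0046 (95% exact interval 0.0001 to 0.0261). It fell by 6.92 ± 0.53 on the log2 scale (edgeR adjusted p = 4.42e-08) and was the 1 Hox gene that passed the filter, in a comparison that called 74.1% of all genes. Hoxb4 passed the filter through the livers, which fixed the direction, so the call is a description. Without the filter 12 were called, all lower, beside 51.7% of all genes. They were Hoxa2 to Hoxa5, Hoxa7, Hoxb2 to Hoxb7 and Hoxd4. The posterior genes had no count in normal livers, so they could not be called lower, and Hoxd4 rests on 2 counts in livers and none in organoids. Hoxa5 had no count in normal organoids and 38 in normal livers, at least 35.2-fold lower. Fibroblast markers summed to 1.31 to 4.81 CPM in normal organoids and to 250 to 647 CPM in normal livers, with 11 of 11 called lower, and their part was not tested.

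Cancer organoids of lines HBS1 to HBS6 also had next to none of these genes. Against PNR tumours, 4 of 4 Hox genes tested were called lower, beside 66.1% of all genes. These genes passed the filter through the PNR tumours, which fixed the direction, so the count is a description. Hoxb4 had 0, 0 and 0.123 CPM in HBS organoids (lowest, median, highest), against 0.236, 0.903 and 2.70 CPM in PNR tumours (log2 difference −6.38 ± 0.79, edgeR adjusted p = 3.84e-06). Hoxa5 had 0, 0 and 0.041 CPM in HBS organoids, against 0.154, 0.423 and 1.49 CPM in PNR tumours (−6.36 ± 0.88, adjusted p = 1.17e-05). Neither gene's ranges overlapped. Hoxb3 differed by −5.58 ± 0.93 and Hoxa3 by −3.15 ± 0.91. With closely matching PNR libraries summed, 2 genes were tested and both were called. Without the filter 14 were lower and none higher, beside 38.6% of all genes.

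Between organoid groups, no Hox gene had enough counts to pass the filter. Without it, edgeR called 0 of 38 Hox genes between LCS and normal organoids, beside 3.15% of all genes and with 6 at an unadjusted p under 0.05. It called 0 of 38 between HBS and normal organoids, beside 0.0221% and with 3 at an unadjusted p under 0.05, and 0 of 39 between LCS and HBS organoids, beside 1.99% and with 6. DESeq2, run on the filtered genes, tested none. LCS2 organoid 1 stood out from the 18 other LCS cultures, with Hoxb6 at 4.62, Hoxb9 at 3.98, Hoxa13 at 3.27, Hoxb4 at 1.84 and Hoxb3 at 1.22 CPM. It had the highest Cdx2 of the LCS organoids, at 91.8 CPM in a range that began at 3.88. Its fibroblast markers summed to 60.6 CPM, against 17.7 to 20.8 CPM in the other LCS2 organoids, and its file carries another library code than most organoids, as that of 1 other LCS organoid does.

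In PPTR metastases the liver's genes stayed near the level of the primaries, and 1 library had Hoxc6, which the primaries nearly lacked. Hoxb4 had 0.797, 1.02 and 1.92 CPM in metastases (lowest, median, highest), against 0.286, 1.52 and 3.67 CPM in primary tumours. None of 6 Hox genes was called by edgeR, beside 31.7% of all genes, with 0 at an unadjusted p under 0.05 and 0 called by DESeq2. Hoxa5 had 3.04 CPM in the lung metastasis and 0.0681 to 0.467 CPM in the other 4, and its lung markers summed to 1971 CPM against 9.67 to 77.9 CPM in those. PPTR tumour 9, a primary tumour, had as much Hoxa5, at 3.08 CPM, with lung markers at 5.53 CPM. The part of lung tissue in the value of the lung metastasis was not tested. Hoxc6 had 1.40 CPM in the metastasis inside the liver and 0.0271 to 0.195 in the other 4. In PPTR tumours it was at most 0.0376 CPM.

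Without the filter 7 genes, 6 of them central, were called higher in PPTR metastases and none lower, beside 18.6% of all genes. Of all 39 Hox genes 15 are central. Hoxc6 had 64 counts in metastases against 1 in primary tumours (log2 difference 5.59 ± 0.88, adjusted p = 0.000149) and Hoxc8 36 against 1 (5.09 ± 0.78, adjusted p = 0.000106). Hoxd8 averaged 0.318 CPM in metastases (n = 5), against 0.022 CPM in primary tumours (n = 11; 3.35 ± 0.79, adjusted p = 0.00513). Hoxb9 differed by 2.97, Hoxc5 by 2.79, Hoxc4 by 2.72 and Hoxa6 by 2.48. All of these stayed under 1 CPM except Hoxc6 in 1 library. The fibroblast markers summed to 903 to 3826 CPM in metastases and to 279 to 1683 CPM in primary tumours, with 3 called higher, and their part was not tested.

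Genes that work with the Hox clusters were followed as lists. The share of all genes called is given beside each count, and where a list's share is near it or below it the count is no result about the list. The list of PBX, MEIS and PKNOX cofactors held 9 genes. In LCS-driven tumours against normal liver 4 of 8 tested were called higher and 1 lower, beside 63.4% of all genes, with a median log2 change of 0.66 against 0.13 over all genes. Meis3 differed by 2.23 ± 0.31 and Pbx3 by 1.995 ± 0.293. In PNR tumours 2 of 8 were called higher than in normal liver, beside 47.7%, with Pbx3 at 34.5 CPM in PNR tumours against 2.26 CPM in normal livers (3.82 ± 0.45), and in PPTR tumours 0 of 8 were called, beside 31.1%. Normal organoids had 5 of 8 higher and 1 lower than normal liver, beside 74.1%, with Meis2 3.17 higher on the log2 scale. Cofactors were thus present in organoids that had no Hox gene at 1 CPM. PPTR metastases had 3 higher than PPTR tumours and 1 lower, beside 31.7%. In HBS1_F2 against HBS1 organoids 0 of 8 were called, beside 13.7%, and without organoid 2 only Pbx3 was called, 2.08 higher on the log2 scale, beside 38.2%.

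Of 21 Polycomb genes, 9 were higher and 2 lower in LCS-driven tumours than in normal liver, beside 63.4% of all genes called. Ezh2, the methyltransferase that silences Hox clusters, had 32.4 CPM in LCS-driven tumours against 9.9 CPM in normal livers (1.54 ± 0.21), and Cbx6 had 44.4 against 6.43 CPM (2.64 ± 0.37). Against LCS organoids the tumours had 2 higher and 14 lower, beside 60.5%, with a median of −0.74 beside 0.05 over all genes, and Cbx7 differed by −1.77. Normal organoids had 14 higher than normal liver and none lower, beside 74.1%, PNR tumours 12 higher and 1 lower, beside 47.7%, and PPTR tumours 2 higher and 4 lower, beside 31.1%.

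Of 12 Trithorax-group and demethylase genes, 0 were higher and 8 lower in LCS-driven tumours than in LCS organoids, beside 60.5% of all genes called, with a median of −0.93 against 0.05 over all genes. They included the H3K27 demethylase gene Kdm6b (−2.80), the H3K79 methyltransferase gene Dot1l (−2.77) and Mll1 (−1.91). HBS1_F2 organoids had 5 of 12 higher than HBS1 organoids and none lower, beside 13.7%, and Mll2, an H3K4 methyltransferase gene, led them with 450 CPM in HBS1_F2 organoids against 58.3 CPM in HBS1 organoids (2.93 ± 0.45). Without HBS1_F2 organoid 2, 6 were higher and 2 lower, beside 38.2%, and Mll2 had 543 CPM in HBS1_F2 organoids (3.23 ± 0.30). Kdm6b (1.40), Dot1l (1.28) and Mll1 (1.23) were among the 5. Normal organoids had 10 higher and 1 lower than normal liver, beside 74.1%, and PNR tumours 9 higher and none lower, beside 47.7%.

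Of the ParaHox and CDX genes, 3 of 3 tested were higher in LCS-driven tumours than in normal liver, beside 63.4% of all genes called. Cdx2 averaged 22.9 ± 17.9 CPM in LCS-driven tumours (SD, n = 10), against 0.0248 ± 0.0608 CPM in normal livers (n = 6; 9.98 ± 1.09, edgeR adjusted p = 1.04e-06). PPTR tumours had at most 0.0425 CPM of Cdx2 and LCS organoids 3.88 to 91.8 CPM, so Cdx2 was present in LCS cultures that had little or no Hoxa13. Normal organoids had 4.45 to 19.02 CPM of Cdx2 and 5.54 to 11.1 CPM of Pdx1, a pancreas and duodenum gene with no count in normal livers.

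Of 11 retinoic acid genes tested, 5 were higher and 4 lower in LCS-driven tumours than in normal liver, beside 63.4% of all genes called. Cyp26a1, which breaks down retinoic acid, averaged 12.5 CPM in LCS-driven tumours against 58.2 CPM in normal livers (−2.36 ± 0.62), and Stra6, a retinol receptor gene, was 8.75 ± 0.95 higher on the log2 scale. Against LCS organoids, Cyp26a1 had 12.5 ± 8.64 CPM in LCS-driven tumours against 0.086 CPM in organoids (7.15 ± 0.81, edgeR adjusted p = 3.26e-06). In LCS-driven lung metastases it fell to 0.288 CPM, against 12.5 CPM in the primary tumours (−5.44 ± 0.80, adjusted p = 0.000277).

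Genes next to the clusters went both ways. Of 12 tested in LCS-driven tumours against normal liver 5 were higher and 3 lower, beside 63.4% of all genes called, and Hibadh, a metabolic gene beside Evx1, had 54.9 CPM in LCS-driven tumours against 416.5 CPM in normal livers (−3.09 ± 0.24). Against LCS organoids 5 of 12 were higher and 3 lower, beside 60.5%, with Snx10 at 2.32 and Skap2 at 1.59. Hoxb3os was the 1 cluster noncoding RNA that passed the filter there and was called higher (5.11). In peritoneal metastases against LCS-driven tumours and in HBS1_F2-driven metastases against their tumours, no member of these lists was called.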

How the data were processed

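Gene counts were available for 96 mouse RNA-seq libraries. Per the labels' protocols, RNA was taken with the Qiagen RNeasy Micro kit and sequenced with a stranded total RNA protocol. The submitters' processing notes name BWA, STAR, HTSeq and the build mm9, with no versions. The deposited counts are whole-number read counts per gene symbol, not normalized. HTSeq's 5 non-gene entries were left out of library sizes. Of all counts in a file, reads outside any gene were 9.78% to 58.3%, unaligned reads 1.86% to 42.8% and ambiguous reads 0.06% to 4.85%. Reads in overlaps (Hoxd3 with Hoxd4, or a Hox gene with its antisense partner) may have been lost or could not be told apart.

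Levels are CPM of library sizes scaled by TMM over all 96 libraries. Differences were tested with edgeR 4.0.16 (R 4.3.3, limma 3.58.1) by its quasi-likelihood test, on genes passing filterByExpr (minimum count 10, minimum total 15), with Benjamini-Hochberg adjustment over all genes tested and a threshold of 0.05. Standard errors are the log2 change divided by the square root of F. Libraries of an organoid line were summed in comparisons over LCS or HBS lines. In the comparison of HBS1_F2 with HBS1, each library was a replicate. DESeq2 1.42.0, relative log expression scaling, no filter, leaving out libraries or lines, blocks of identifiers, and a ribosomal-repeat covariate were alternatives. The fits were tested on simulated data. Any Hox gene may be named; genes of lists were named when called and at 5 CPM or more in the higher group, at most 4 per list and comparison. Evx1, Hoxb3os, Mir196a-1 and the single marker genes Spp1, Krt7, Krt19, Epcam, Msln and Wt1 were named after their values were seen. The same holds for the fibroblast list genes named in HBS1_F2-driven metastases. Members and lists were chosen with earlier results of these data known. Gene lists used older symbols where the files do (Mll1, Mll2). Some genes are in the counts and fits, but their own results are not reported here. No sample was dropped from the main fits.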

Additional observations from a re-analysis of the deposited data

Results flagged for a closer look

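Of 30 sets of 1 gene in 1 group or line of 4 to 10 libraries, with at least 1 library at 2 CPM, 10 held a library far from the others by Dixon's test. Chance flags about 1 in 20 groups that were not chosen for their values. These sets were chosen for holding a high library, so that rate is no yardstick for them. Among HBS1_F2 organoids, organoid 3 stood apart with Hoxb7 at 3.92 CPM (0 to 0.67 in the others). Organoid 2 stood apart with Hoxb3 at 0.0 CPM (3.44 to 3.985 in the others). Organoid 4 stood apart with Hoxc5 at 2.756 CPM (0.018 to 0.101), Hoxc6 at 5.437 (0.053 to 0.423), Hoxc8 at 4.767 (0 to 0.056) and Hoxd8 at 2.086 (0 to 0.028). Among PPTR metastases, the lung metastasis had Hoxa5 at 3.036 CPM (0.068 to 0.467). Among LCS2 organoids, organoid 1 had Hoxa13 at 3.273 CPM (0.124 to 0.594), Hoxb6 at 4.619 (0.238 to 0.372) and Hoxb9 at 3.977 (0.062 to 0.186).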

How the results depend on the processing

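Counts of called Hox genes changed under several settings. Without the filter on low counts they were 1 for PPTR tumours against normal liver (beside 16.2% of all genes), 17 for PPTR against PNR tumours (37.7%), 10 for LCS-driven against PPTR tumours (34%), 2 for HBS1-family against PNR tumours (2.37%), 12 for normal organoids against liver (51.7%), 5 for HBS1_F2 against HBS1 organoids (5.57%), 17 for LCS-driven tumours against LCS organoids (37.9%), 14 for HBS organoids against PNR tumours (38.6%), 0 for LCS-driven lung metastases against primary tumours (6.56%) and 7 for PPTR metastases against primary tumours (18.6%). DESeq2 called 2 for PPTR against PNR tumours, 0 for HBS1_F2 against HBS1 organoids, 2 for lung metastases against primary tumours and 1 for lung against peritoneal metastases. The ribosomal-repeat covariate left 0 for LCS-driven tumours against liver. Leaving out PPTR tumours of another library code left 0 against PNR tumours, 1 block of identifiers gave 2 for LCS-driven against PPTR tumours and 0 for lung metastases against primary tumours, and summing close PNR libraries gave 2 for HBS organoids against PNR tumours. Alternatives chosen after seeing the data gave 13 for HBS1_F2 against HBS1 organoids (without HBS1_F2 organoid 2 and HBS1 organoids 1 and 3) and 0 for lung metastases against primary tumours (lung metastases 1 and 2 summed). The causes were not tested.

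With 1 library or line left out, counts ran from 0 to 11 for HBS1_F2 against HBS1 organoids (11 without HBS1_F2 organoid 2, 0 without any other), 2 to 4 for LCS-driven tumours against liver, 0 to 1 for lung metastases against primary tumours, 0 to 1 for the HBS1 family against PNR tumours (1 without HBS1_F2-driven tumour 1) and 11 to 12 for LCS-driven tumours against LCS organoids. Of single genes, 205 values stayed on their side of the threshold with the same sign, 31 lost their call, 2 gained one and 5 reversed. Reversed were Hoxa13 in lung metastases without metastasis 3 (−0.0359, in a range to 1.3046), and in HBS1_F2-driven metastases Hoxa10 without metastasis 3 (−0.28, in a range to 5.49) and Hoxb13 without metastasis 3 (0.54), HBS1_F2-driven tumour 1 (0.31) or tumour 2 (0.21), in a range from −0.51. At 0.5 CPM in place of 1, mean numbers of Hox genes per library were 4.5 in HBS1_F2-driven tumours, 9.5 in HBS1-driven tumours, 6.0 in lung metastases, 9.0 in peritoneal metastases, 7.2 in LCS-driven tumours, 4.6 in PPTR metastases, 4.27 in PPTR tumours, 3.22 in PNR tumours, 0.273 in HBS organoids and 4.17 in normal livers. At 2 CPM they were 1.0 in HBS1_F2-driven tumours, 3.5 in HBS1-driven tumours, 1.4 in lung metastases, 1.2 in LCS-driven tumours, 0.182 in PPTR tumours and 0.0 in normal livers. No paired analysis was possible because the labels give no replicate numbers that the groups share. Below about 1 CPM most values rest on few counts, so absence from a shallow library was not detectable.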
